A study of Mus musculus with 9 samples.

Results

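The genes described here are 7 granule genes of early granulocytes, Mpo, Elane, Prtn3, Ctsg, Prss57, Cst7 and Nkg7, taken by name from the 24296 genes counted in single cells of mouse knee joints. Cells were also gated on them: of 16749 cells kept, 1186 held at least 5 summed counts of Mpo, Elane, Prtn3 and Ctsg, which are called the gate genes below. By what the genes are known to encode, only Elane, Prtn3, Ctsg and Prss57 are serine proteases. Mpo encodes the haem peroxidase myeloperoxidase, Cst7 the cysteine protease inhibitor cystatin F, and Nkg7 a granule membrane protein best known from cytotoxic lymphocytes.

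Primary (azurophil) granules are the first granules that a developing neutrophil makes, at the promyelocyte stage in the bone marrow. Neutrophil elastase (Elane), proteinase 3 (Prtn3) and cathepsin G (Ctsg) are stored there with myeloperoxidase and are activated by dipeptidyl peptidase I, the product of Ctsc. Their transcripts are shut off as the cell goes on to make secondary granules with lactoferrin (Ltf), cathelicidin (Camp) and neutrophilic granule protein (Ngp), so mature neutrophils carry the proteins but little of the mRNA.

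The counts come from Seq-Well, in which single cells are captured with barcoded beads in small wells and their polyadenylated RNA is sequenced. Sick mice (5, numbered 1, 3, 4, 5 and 6) had an antigen-induced arthritis: they were sensitized to methylated bovine serum albumin (mBSA) and then received mBSA by injection into the left knee, and the arthritis was checked by immunohistochemistry. Healthy mice (4, numbered 1 to 4) had phosphate-buffered saline injected into the left knee instead. All 9 were female 129/Sve mice 8 weeks old, killed 1 week after the injection, and the whole left joint was used. Each mouse is 1 sample, sequenced in several runs that the authors merged.

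Kept cells held 1589079 to 4675909 counts per sick mouse and 896930 to 1514252 per healthy mouse. Haemoglobin genes took 10.2% to 27.9% of the counts in sick mice and 17.6% to 39.7% in healthy mice, with healthy mice 2, 3 and 4 highest of all. An unnamed cluster led by the ribosomal RNA-like transcripts Mir6236 and Gm42418 held 511 cells of sick mice and 1679 of healthy mice (336, 635 and 647 in healthy mice 2, 3 and 4). The labels give no sequencing batch per mouse. There were 8 cell barcodes that occurred in more than 1 mouse, and 1 gated cell carried such a barcode.

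The genes lie at 5 places in the mouse genome (GRCm38, GENCODE M21). Elane (chr10:79886247-79888215, plus strand) and Prtn3 (chr10:79874476-79883174, plus strand) are 3072 bases apart, and Prss57 (chr10:79781474-79790961, minus strand) lies 83514 bases from Prtn3. Mpo is at chr11:87793581-87804413 on the plus strand, Ctsg at chr14:56099881-56102574 on the minus strand, Cst7 at chr2:150570415-150578944 and Nkg7 at chr7:43437073-43438249, both on the plus strand. All are protein-coding genes. Mpo overlaps the antisense gene Gm11505, Prtn3 overlaps Plppr3 and Prss57 overlaps Fstl3, each on the opposite strand. Whether the counting used strand is not given in the sources used here, so reads from those overlaps cannot be assigned with certainty.

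The promoters of the 4 gate genes are shown because these genes were detected together in single cells. Each runs from 250 bases before to 50 bases after the RefSeq gene start (GRCm38.p6), on the gene's own strand. For Mpo, Elane and Prtn3 that start lies inside the longer GENCODE gene, so some or all of the 250 bases before it lie within that gene. The capitals mark GAGGAA, the core letters bound by the myeloid factor PU.1.
Mpo (chr11:87793534-87793833, plus strand): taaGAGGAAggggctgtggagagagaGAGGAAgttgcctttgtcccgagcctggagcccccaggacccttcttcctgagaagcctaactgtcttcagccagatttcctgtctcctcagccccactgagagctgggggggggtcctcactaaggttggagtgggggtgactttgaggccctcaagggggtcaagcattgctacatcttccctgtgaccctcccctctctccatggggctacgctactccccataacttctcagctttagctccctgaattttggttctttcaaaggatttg
Elane (chr10:79886062-79886361, plus strand): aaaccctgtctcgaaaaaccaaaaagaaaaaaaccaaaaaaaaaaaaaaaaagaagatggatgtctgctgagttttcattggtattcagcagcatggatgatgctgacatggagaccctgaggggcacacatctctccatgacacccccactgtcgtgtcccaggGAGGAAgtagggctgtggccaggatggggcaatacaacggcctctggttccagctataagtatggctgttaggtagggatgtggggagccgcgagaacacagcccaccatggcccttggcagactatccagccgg
Prtn3 (chr10:79879417-79879716, plus strand): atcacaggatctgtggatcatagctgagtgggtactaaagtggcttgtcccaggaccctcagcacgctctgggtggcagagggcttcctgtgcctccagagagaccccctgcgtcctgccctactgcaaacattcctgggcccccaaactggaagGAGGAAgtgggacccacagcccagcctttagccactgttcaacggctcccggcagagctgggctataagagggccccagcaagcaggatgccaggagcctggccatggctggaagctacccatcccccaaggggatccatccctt
Ctsg (chr14:56102525-56102824, minus strand): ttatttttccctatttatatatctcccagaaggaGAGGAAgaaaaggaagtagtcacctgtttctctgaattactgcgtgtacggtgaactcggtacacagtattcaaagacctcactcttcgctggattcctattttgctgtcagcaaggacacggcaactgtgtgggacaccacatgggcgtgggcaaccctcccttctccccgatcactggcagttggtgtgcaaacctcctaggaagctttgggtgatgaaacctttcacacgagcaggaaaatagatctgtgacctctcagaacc

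GAGGAA, searched on both strands, was found in all 4 of these promoters, against 28.3% of the 32851 promoters of the same table. Counted from the start as +1, with the base before it as -1, the matches began at -247 and -224 in Mpo, -85 in Elane, -95 in Prtn3 and -216 in Ctsg, each on the gene's strand. RefSeq promoters were matched for 6 of the 7 genes, and GAGGAA was not among the letters of Cst7 and Nkg7 in this window. The MYB core AACTG was found in 5 of the 6 (all but Elane) and in 44.8% of all promoters. The RUNX core TGTGGT was found in Ctsg, Cst7 and Nkg7 and in 16.8% of all promoters. TTGCNNAA, a form of the C/EBP site, was found in Cst7 alone among the 6 and in 10.8% of all. No match of one motif overlapped a match of another in these 6, and a match of letters is a description of sequence, not a measured binding site.

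In the whole joint, none of the 7 genes differed between sick and healthy mice beyond the spread between mice. Counts were summed over the cells of each mouse, expressed as CPM (counts scaled to a common library size, here with TMM factors), and compared with edgeR's quasi-likelihood test over 10323 genes, with p-values adjusted by Benjamini-Hochberg. A fold change of such a sum cannot tell fewer cells of a type from less RNA per cell. The test called 0 of the 7 genes, against 0.940% of all genes tested (97 genes; 0.639% were higher and 0.300% lower in sick mice). None of the 7 had an unadjusted p under 0.05, against 1426 of the 10323 genes tested, and DESeq2 also called 0.

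Mpo, the peroxidase, had 841, 721, 433, 482 and 422 CPM in sick mice 1, 3, 4, 5 and 6, against 670, 476, 554 and 348 CPM in healthy mice 1 to 4. Sick mice 1 and 3 were above every healthy mouse and the other sick mice lay among the healthy ones. The log2 fold change of Mpo was 0.18 ± 0.23 (SE), with a 95% interval of -0.31 to 0.67 (edgeR adjusted p = 0.769).

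Of the serine proteases, Elane had 1053, 851, 564, 635 and 547 CPM in the sick mice, against 671, 823, 804 and 408 CPM in the healthy mice, a log2 fold change of 0.11 ± 0.23 (edgeR adjusted p = 0.863). Prtn3 had 469, 428, 216, 228 and 221 CPM in the sick mice, against 304, 226, 257 and 156 CPM in the healthy mice. Its log2 fold change was 0.40 ± 0.26, with an interval of -0.14 to 0.95 (edgeR adjusted p = 0.509). For every gene, sick mice 1 and 3 were the highest 2 sick mice and healthy mouse 4 was the lowest healthy one.

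Ctsg ranged from 101 to 201 CPM (median 107) in sick mice and from 82.6 to 152 CPM in healthy mice, with a log2 fold change of 0.19 ± 0.24 (edgeR adjusted p = 0.760). Prss57, which encodes the neutrophil serine protease NSP4, had 54.7, 62.0, 37.4, 34.7 and 34.2 CPM in the sick mice, against 42.9, 46.2, 35.2 and 18.5 CPM in the healthy mice, a log2 fold change of 0.33 ± 0.26 (edgeR adjusted p = 0.611). All groups overlapped. Of all genes tested, 4.85% had groups that did not overlap, 2.85% with sick mice higher and 2.01% with sick mice lower.

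Cst7, whose product inhibits the protease activator made from Ctsc, averaged 26.0 ± 6.90 CPM in sick mice and 21.9 ± 6.76 CPM in healthy mice (SD, n = 5 and 4), a log2 fold change of 0.23 ± 0.26 (edgeR adjusted p = 0.730). Nkg7 had 97.2, 95.8, 56.4, 62.4 and 59.0 CPM in the sick mice, against 73.1, 84.6, 78.2 and 53.4 CPM in the healthy mice. Its log2 fold change was 0.05 ± 0.21, with an interval of -0.39 to 0.49 (edgeR adjusted p = 0.938). These intervals exclude a 2-fold change in either direction for all 7 genes, since the widest upper bound was 0.95 for Prtn3 and the lowest lower bound -0.39 for Nkg7. Without healthy mice 2, 3 and 4, which leaves 1 healthy mouse, Mpo, Ctsg and Cst7 were lower in sick mice (log2 fold changes of -0.19, -0.11 and -0.11), with no call in either setting.

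**Figure D1:**
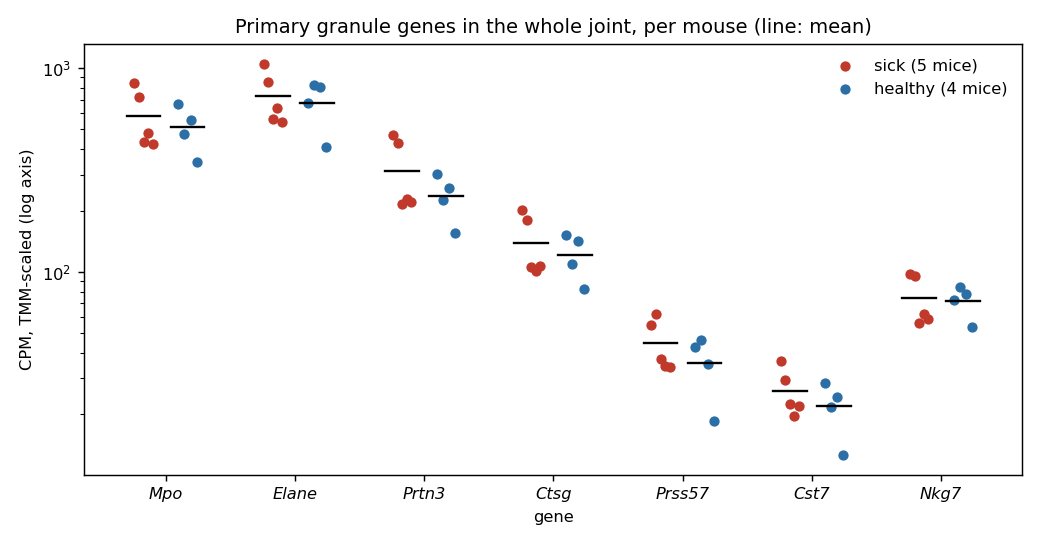
CPM (TMM-scaled, log axis) of the 7 genes in the whole joint, 1 point per mouse, sick mice (red) left of healthy mice (blue), with a line at each group's mean. The groups overlap for every gene; Mpo runs from 422 to 841 CPM in sick mice and from 348 to 670 CPM in healthy mice.

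The transcripts were concentrated in few cells. In all mice together, the 1186 gated cells (7.08% of kept cells) held 14.1% of all counts. They held 83.8% of the Ctsg counts, 81.0% of Mpo, 79.6% of Elane and 79.0% of Prtn3, which the gate itself favours. Of the 3 genes that the gate did not use, they held 68.9% of the Cst7 counts, 66.7% of Prss57 and 62.8% of Nkg7. Of all kept cells, 63.6% had no gate count.

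Clusters were made without the 7 genes, so that their levels did not enter the clustering. The cluster with most gated cells held 785 cells, 476 of them gated (60.6% of the cluster and 40.1% of all gated cells). Its leading genes were Ctla2a, Ms4a3 and Cdk6; Ms4a3 is a gene of granulocyte and monocyte progenitors and Cdk6 a cyclin-dependent kinase of dividing progenitors. Only 2 of the fixed granulocyte progenitor markers were among its 30 leading genes, so the cluster keeps no cell type name and is called the Ctla2a/Ms4a3/Cdk6 cluster. Its cells were also the deepest of all clusters, with a median of 1690 counts per cell, against 689 to 1458 in the other clusters.

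Among the 17 clusters with at least 20 cells in 3 or more mice, 6 of the 7 genes had their highest level there. The cluster was singled out for its gated cells, so its levels of the gate genes are a description. Levels by cluster are CPM of each mouse's summed counts without TMM factors. The median over the 9 mice was 3507 CPM for Mpo (range 2360 to 4409), 4438 for Elane (2838 to 6384), 1349 for Prtn3 (866 to 2458) and 885 for Ctsg (597 to 1185). For each of these 4 genes every mouse's value in this cluster was above every mouse's value in the cluster next in order. Prss57 had a median of 249 CPM (44.8 to 429), which overlapped the eosinophil cluster next in order (69.3 CPM, 0 to 109), and Cst7 had 152 CPM (73.8 to 202), which did not overlap the next.

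Elsewhere among the ranked clusters the levels were low. Over the 16 others, the cluster medians ran from 112 to 498 CPM for Mpo, from 129 to 670 CPM for Elane and from 0 to 22.9 CPM for Cst7. The mast cell or basophil cluster had too few mice to be ranked, and its 1 mouse with at least 20 cells had 157 CPM of Cst7. In B cells and skeletal muscle, which do not make myeloperoxidase, Mpo still stood at 180 and 322 CPM, so levels of this size are read as background. The monocyte or macrophage cluster led by F13a1 came next for Mpo (498 CPM), Prtn3 (353 CPM) and Ctsg (109 CPM), and the neutrophil cluster led by Fcnb came next for Elane (670 CPM). Their ranges over mice overlapped those of the clusters that followed. The neutrophil cluster led by Mmp8, Fpr1 and Retnlg, genes of mature neutrophils, had the lowest median of Mpo, Elane, Prtn3 and Nkg7 (112, 129, 47.2 and 21.2 CPM).

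Nkg7 followed another order. Its level was highest in the T or NK cell cluster led by Klra7, Klra4 and Ccl5, at 457 CPM (312 to 588, 4 mice with at least 20 cells), then in the Ctla2a/Ms4a3/Cdk6 cluster at 357 CPM (254 to 681, 9 mice), and these ranges overlapped. The next cluster in order had 72.1 CPM (37.4 to 101), below every mouse of both. Over the 17 clusters, which share mice, depth and free RNA, the Spearman coefficient of the cluster medians was 0.93 for Mpo with Prtn3 and 0.86 for Mpo with Ctsg. It was 0.51 for Mpo with Prss57, 0.48 for Mpo with Cst7, 0.56 for Mpo with Nkg7 and 0.08 for Cst7 with Nkg7. The coefficients with Mpo therefore do not set Nkg7 apart from Prss57 and Cst7.

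**Figure D2:**
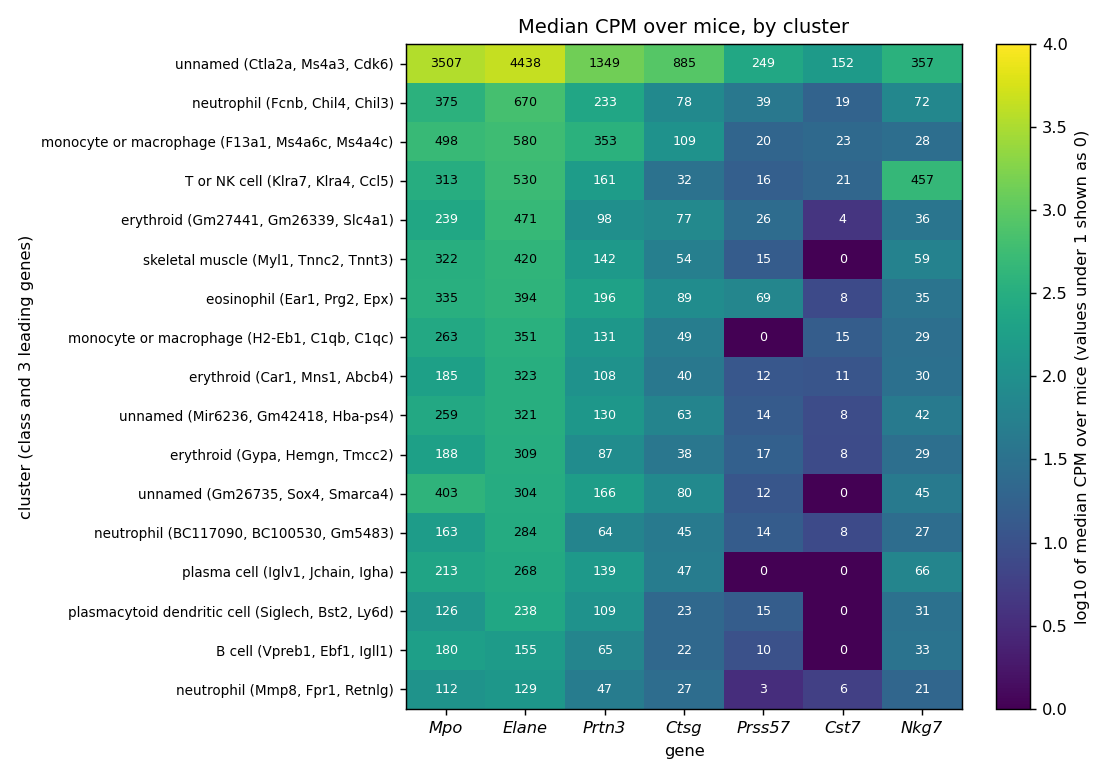
Median CPM over mice of the 7 genes (columns) in each cluster with at least 20 cells in 3 or more mice (rows, ordered by Elane), coloured on a log10 scale. The Ctla2a/Ms4a3/Cdk6 cluster in the top row has the highest value of every gene but Nkg7, which is highest in the T or NK cell cluster (457 CPM).

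Single cells showed the genes together. A count of Mpo was found in 3044 cells, of Elane in 3693, of Prtn3 in 2173 and of Ctsg in 1171. Since deep cells show more of every gene, each cell was thinned at random to 500 counts, which left out 1436 shallower cells of sick mice and 328 of healthy mice. Among thinned cells with Mpo, 45.1% also had Elane, against 9.38% of the cells without Mpo; per mouse the first share ran from 37.9% to 54.4%. Unthinned, these shares were 49.9% and 15.9%.

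Among thinned cells with Ctsg, 59.4% had Mpo, 60.8% Elane and 48.0% Prtn3, against 9.78%, 11.7% and 6.40% of the cells without Ctsg. The genes outside the gate were found with Mpo too: 44.1% of thinned cells with Prss57, 47.3% of those with Cst7 and 41.8% of those with Nkg7 had Mpo, against 11.2%, 11.3% and 10.9% of the cells without them. Cst7 and Nkg7 were found together in 19.9% of the thinned cells with Cst7 (29 of 146), against Nkg7 in 2.42% of those without. In the B cell cluster, where these genes should be missing, 6.02% of thinned cells had Mpo and 7.04% had Elane (10% and 12.5% unthinned, at a median of 823 counts). In the Ctla2a/Ms4a3/Cdk6 cluster 59.3% and 54.1% of thinned cells had them (71.0% and 64.5% unthinned, at a median of 1690 counts).

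**Figure D3:**
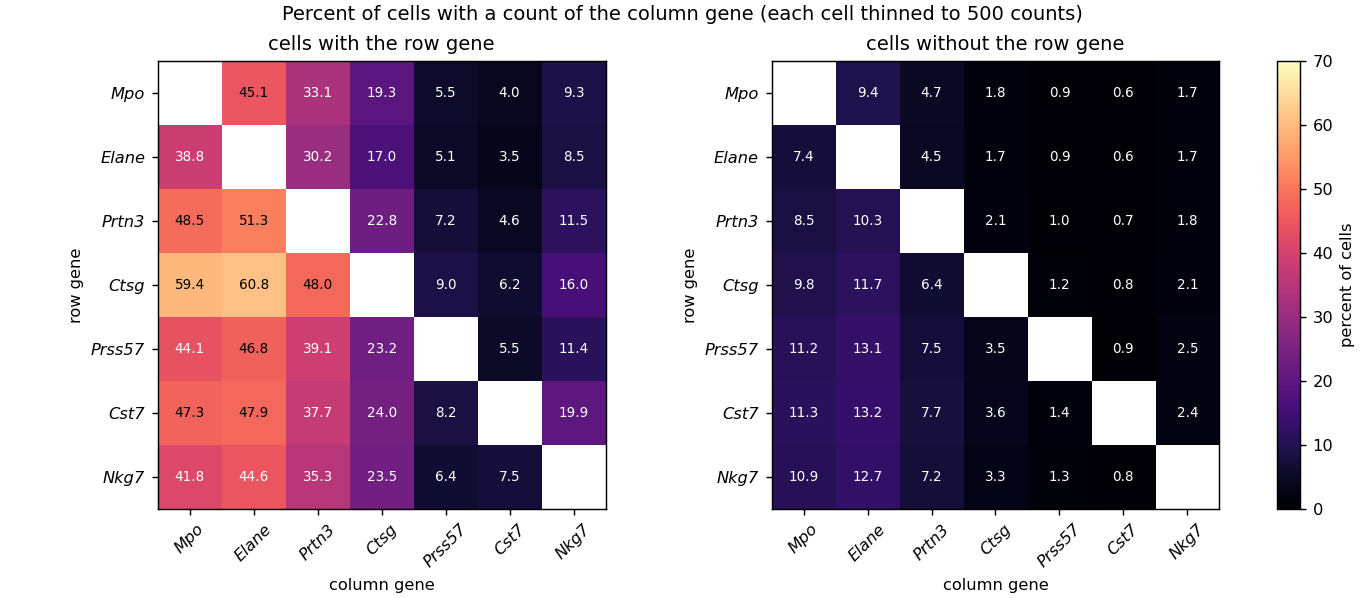
Percent of cells with a count of the column gene among cells with (left) and without (right) a count of the row gene, all 9 mice together, each cell thinned to 500 counts. Every pair is more frequent on the left; of cells with Ctsg, 60.8% have Elane, against 11.7% of cells without Ctsg.

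Among the gated cells, 590 (49.7%) had all 4 gate genes, 425 had 3, 156 had 2 and 15 had 1. The share with all 4 ran from 46.9% to 56.3% in sick mice and from 28.3% to 49.5% in healthy mice, while the median gate count per cell was 13 to 17 in sick mice, 15 in healthy mouse 1 and 8 in healthy mice 2, 3 and 4. The median total count per gated cell was 1602 to 2272 in sick mice, 2576 in healthy mouse 1 and 1082 to 1270 in the other healthy mice. These shares depend on that depth and are given without a test. No doublet caller was run; of the 241 kept cells with more than 5 times the median count of 892, 128 were gated (10.8% of gated cells).

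The 3 genes that the gate did not use stood higher in cells with the most gate counts than in cells with none. Over all mice, Prss57 was at 17.9 CPM in the 10657 cells with no gate count and at 469 CPM in the 150 cells with 50 or more, Cst7 at 8.01 and 215 CPM, and Nkg7 at 31.0 and 661 CPM. Just inside the gate, the 155 cells with 5 counts had 47.8 CPM of Prss57, 41.0 CPM of Cst7 and 78.6 CPM of Nkg7. Just outside it, the 201 cells with 4 counts had 60.1 CPM of Prss57, 27.1 CPM of Cst7 and 102 CPM of Nkg7. Ms4a3 behaved likewise, with 71.2 and 2177 CPM at the ends. Ctsc, the gene of the activating peptidase, did not: it was at 152 CPM in cells with 10 to 19 gate counts and at 52.0 CPM in cells with 50 or more. Of the cells in those bins, 35.1% and 87.3% lay in the Ctla2a/Ms4a3/Cdk6 cluster, and Ctsc is among the leading genes of the F13a1 monocyte cluster. Camp, a secondary granule gene, was at 10068 CPM in cells with no gate count and 7607 CPM in those with 50 or more.

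**Figure D4:**
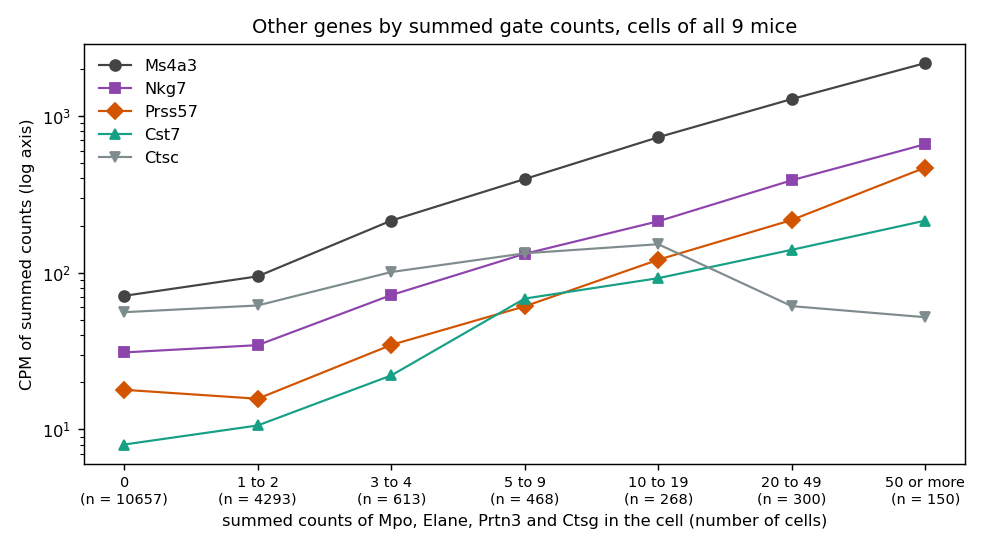
CPM of summed counts (log axis) of Ms4a3, Nkg7, Prss57, Cst7 and Ctsc in cells of all 9 mice, grouped by their summed counts of the 4 gate genes, with the number of cells under each group. Ms4a3, Nkg7, Prss57 and Cst7 are highest at 50 or more counts (2177, 661, 469 and 215 CPM), and Ctsc is highest at 10 to 19 (152 CPM).

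The gated cells were not of 1 kind. Beside the 476 in the Ctla2a/Ms4a3/Cdk6 cluster, 208 lay in the F13a1 monocyte cluster, 181 in the Fcnb neutrophil cluster and 321 in others. In the first, Ctsg made up 8.56% of the gate counts and Prss57 stood at 330 CPM. In the F13a1 monocyte cluster, the gated cells had 9.39% Ctsg, and Prss57 at 53.1 CPM. In the Fcnb neutrophil cluster Ctsg made up 4.90% and Prss57 stood at 191 CPM. Cst7 stood at 178, 65.4 and 99.9 CPM and Nkg7 at 514, 98.1 and 276 CPM in the same 3 sets, so all 3 genes outside the gate were lowest in the gated cells of the monocyte cluster. These are sums over cells of all mice, described without a test.

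Between sick and healthy mice, none of the 3 genes outside the gate passed the test in gated cells. The 4 gate genes are described only, since the gate used them: Mpo made up 33% to 34% of the gate counts in sick mice and 30.3% to 37.2% in healthy mice. Elane made up 38.8% to 43.8% in sick mice and 37.5% to 47.9% in healthy mice. Prtn3 made up 15.0% to 19.3% in sick mice and 13.3% to 16.8% in healthy mice, and Ctsg 7.15% to 8.77% in sick mice and 6.98% to 9.34% in healthy mice. All 4 ranges overlapped.

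The 3 genes outside the gate were tested over 4843 genes in the summed gated cells of each mouse. Prss57 had 223, 303, 250, 233 and 203 CPM in the sick mice, against 171, 266, 154 and 95 CPM in the healthy mice. These levels rest on 130, 244, 44, 65 and 51 counts in the sick mice and 49, 20, 12 and 6 counts in the healthy mice. Its log2 fold change of 0.49 ± 0.24, with an interval of 0.01 to 0.98, had an unadjusted p of 0.0455 and did not pass (edgeR adjusted p = 0.441). Of all 4843 genes tested, 536 had an unadjusted p under 0.05. For Prss57, only healthy mouse 2 reached into the range of the sick mice. Prss57 stayed higher in sick mice under each of the 21 other settings tried (log2 fold changes of 0.36 to 0.77), and none passed (lowest edgeR or DESeq2 adjusted p = 0.242).

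Cst7 in gated cells averaged 147 ± 18.6 CPM in sick mice and 146 ± 70.1 CPM in healthy mice (SD, n = 5 and 4), a log2 fold change of 0.02 ± 0.26 (edgeR adjusted p = 0.984). Nkg7 averaged 394 ± 30.8 CPM in sick mice and 404 ± 119 CPM in healthy mice, a log2 fold change of 0.02 ± 0.20 (edgeR adjusted p = 0.983). The sick mice spread less widely than the healthy mice for both genes, with 129 to 175 CPM of Cst7 in sick mice and 79.2 to 245 CPM in healthy mice. The healthy values rest on fewer counts, 5 to 36 of Cst7 per healthy mouse against 27 to 106 per sick mouse. For Nkg7 these were 21 to 79 and 70 to 331 counts, and the part of counting error in the spread was not tested. Of these 3 genes the test called 0, against 1.22% of all genes tested (59 genes; 0.661% were higher and 0.558% lower in sick mice), and DESeq2 also called 0. The groups of all 3 overlapped, while 4.58% of genes tested did not overlap (3.14% with sick mice higher and 1.45% with sick mice lower).

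Within the Ctla2a/Ms4a3/Cdk6 cluster, all 7 genes were tested, since the clustering had not used them; the cluster was chosen for its gated cells of sick and healthy mice together, a choice that rests on 4 of the 7. None of the 7 was called, against 0.629% of 3181 genes tested (20 genes, with 0.472% higher and 0.157% lower in sick mice). None of them had an unadjusted p under 0.05, against 309 of all genes tested there, and DESeq2 called 0 as well. Elane had 5962, 6045, 5282, 5148 and 4365 CPM in the sick mice, against 5106, 8184, 5711 and 3883 CPM in the healthy mice, a log2 fold change of -0.08 ± 0.22 (edgeR adjusted p = 0.955). Mpo had 3494 to 5187 CPM in sick mice and 3229 to 4806 CPM in healthy mice, a log2 fold change of 0.04 ± 0.20. The others were 0.23 ± 0.21 for Prtn3, -0.11 ± 0.20 for Ctsg, 0.17 ± 0.31 for Prss57, -0.28 ± 0.33 for Cst7 and -0.12 ± 0.23 for Nkg7. Cst7 had the widest interval, -0.95 to 0.39, and the groups of all 7 overlapped, while 3.93% of genes tested did not (2.55% with sick mice higher and 1.38% with sick mice lower).

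The share of gated cells did not differ beyond the spread between mice. It was 11.8%, 8.29%, 6.87%, 5.21% and 5.36% of kept cells in sick mice 1, 3, 4, 5 and 6, against 8.66%, 5.25%, 6.00% and 3.76% in healthy mice 1 to 4. The means were 7.5% ± 2.71 in sick mice and 5.92% ± 2.05 in healthy mice (SD), a difference of 1.59 percentage points (exact permutation test, two-sided, p = 0.413, adjusted over 4 shares 0.656). The smallest p that the 126 splits of 9 mice allow is 0.0159. With the cells of the other unnamed clusters left out, the means were 7.77% ± 2.81 in sick mice and 7.42% ± 1.00 in healthy mice (exact permutation p = 0.905). Among cells with at least 400 genes, the difference was -0.0998 percentage points.

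The Ctla2a/Ms4a3/Cdk6 cluster made up 5.11% ± 1.2 of kept cells in sick mice and 3.53% ± 1.69 in healthy mice (SD, exact permutation p = 0.159, adjusted 0.635). Its share was 3.94% to 7.02% in sick mice, 5.99% in healthy mouse 1 and 2.28% to 3.27% in healthy mice 2, 3 and 4. Without those 3 healthy mice the difference was -0.889 percentage points, with 1 healthy mouse and no test. The cluster held 41.0% ± 4.08 of the gated cells in sick mice and 36.2% ± 14.8 in healthy mice (exact permutation p = 0.492, adjusted 0.656).

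A fixed list of genes linked to the activation, storage, release or inhibition of proteases gave few calls. Of its 17 genes, 13 were tested in the whole joint: 1 rose and none fell. Their median log2 fold change was 0.31 beside -0.02 over all genes tested, and 11 of the 13 were positive. The riser was Slpi, which encodes a secreted inhibitor of elastase and cathepsin G. Slpi had 141, 189, 97.3, 152 and 140 CPM in the sick mice, against 99.4, 80.8, 60.6 and 50.5 CPM in the healthy mice, a log2 fold change of 0.98 ± 0.22 (edgeR adjusted p = 0.0428). Only sick mouse 4 reached into the range of the healthy mice, and the call was lost without any 1 of sick mice 1, 3, 5 and 6 or of healthy mice 2, 3 and 4. Without those 3 healthy mice together the log2 fold change of Slpi was 0.56 (edgeR adjusted p = 0.752). In gated cells 0 of 8 tested were called (2 at an unadjusted p under 0.05, beside 536 of all 4843 genes tested, and 0 by DESeq2). There Slpi had a log2 fold change of 0.65 ± 0.26 (edgeR adjusted p = 0.330), and Ap3b1, a subunit of the adaptor that sorts elastase to granules, -0.97 ± 0.31 (edgeR adjusted p = 0.144).

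Of 20 other granule and lysosome genes, 18 were tested in the whole joint and 13 in gated cells. None rose and 1 fell in the whole joint: Prg3, an eosinophil granule protein gene, at 20.1 ± 6.64 CPM in sick mice and 48.7 ± 12.0 CPM in healthy mice (SD; log2 fold change -1.30 ± 0.25, edgeR adjusted p = 0.0184). The call was lost without any 1 of sick mice 3 and 5 or healthy mice 2 and 3, and without healthy mice 2, 3 and 4 together Prg3 was at -1.58 (edgeR adjusted p = 0.376). Of the 18, DESeq2 called 2 higher and 2 lower. In gated cells Fcnb rose: this gene encodes ficolin B, a lectin of early neutrophil granules. Fcnb had 3098, 2457, 3048, 3181 and 3702 CPM in the sick mice, against 1783, 1692, 2021 and 1647 CPM in the healthy mice, without overlap (log2 fold change 0.79 ± 0.16, edgeR adjusted p = 0.00932). Fcnb passed without each single mouse. It did not pass with the replicate number as a block (0.65, edgeR adjusted p = 0.108), a setting that compares only mice 1, 3 and 4 of each group. Nor did it pass with a gate of 0.5% of counts (0.73, edgeR adjusted p = 0.0810) or in the gated cells of the Ctla2a/Ms4a3/Cdk6 cluster alone (0.64, edgeR adjusted p = 0.408). Without healthy mice 2, 3 and 4 together, which leaves 1 healthy mouse, Fcnb was at 0.84. Epx, eosinophil peroxidase, fell by 2.18 ± 0.55 on the log2 scale (edgeR adjusted p = 0.0422), with 15.5, 24.8, 96.5, 64.5 and 19.9 CPM in the sick mice, against 371, 13.3, 51.5 and 0 CPM in the healthy mice. Of the 111 healthy counts of Epx, 106 came from healthy mouse 1, and without that mouse, or without any 1 sick mouse, the gene fell under the filter on low counts and was not tested. DESeq2 did not call Epx (-1.38, adjusted p = 0.688), and edgeR did not with a gate of 3 counts (-1.87, adjusted p = 0.117) or of 10 counts (-2.24, adjusted p = 0.0976). Of these 13 genes in gated cells, DESeq2 called Fcnb alone.

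Of 15 secondary and tertiary granule genes, 11 were tested in gated cells: 6 rose, none fell and 5 were not called, beside 0.661% of all genes tested that were higher in sick mice. No test compared this list with the others. The median log2 fold change was 0.84 beside -0.02 over all genes tested. Camp, the cathelicidin precursor, had 10489, 8663, 9945, 13215 and 14114 CPM in the sick mice, against 5111, 6460, 6398 and 7332 CPM in the healthy mice (log2 fold change 0.84 ± 0.19, edgeR adjusted p = 0.0166). Every sick mouse was above every healthy mouse. Ngp stood at 6885 to 12828 CPM in sick mice and 4542 to 6255 CPM in healthy mice (0.85 ± 0.19, edgeR adjusted p = 0.0166).

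The other 4 risers were Chil3, a chitinase-like protein gene (0.89 ± 0.19), Lcn2, the siderophore-binding lipocalin (0.87 ± 0.19), Pglyrp1, a peptidoglycan recognition protein (0.95 ± 0.22), and Cd177, a neutrophil surface protein that binds proteinase 3 (0.93 ± 0.22). Their edgeR adjusted p-values were 0.0151, 0.0166, 0.0228 and 0.0232. Ltf, lactoferrin, had a log2 fold change of 0.42 ± 0.17 (edgeR adjusted p = 0.330), and the collagenase gene Mmp8 0.07 ± 0.38. In the whole joint 9 of 14 had an unadjusted p under 0.05, beside 1426 of all 10323 genes tested. Of the 14, edgeR called 0 and DESeq2 called 1, and their median was 0.60. Between the gated-cell changes of these genes and those of the primary granule genes no test of the difference was run.

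Several measures moved with this group, and their part in the result was not tested; the CPM given for them are without TMM factors. The Fcnb neutrophil cluster, whose gated cells carried 25308 CPM of Camp, held 13.6% to 18.7% of the gated cells of sick mice and 4.35% to 13% of those of healthy mice. Clusters other than the main 3 held 17.4% to 33.3% of the gated cells of sick mice and 20.9% to 61.9% of those of healthy mice. In B cells outside the gate, which do not make cathelicidin, Camp stood at 2556 to 4481 CPM in sick mice and 1480 to 5614 CPM in healthy mice, with healthy mouse 1 highest. Hba-a1, an erythroid gene, stood at 4357 to 8243 CPM in the gated cells of sick mice, 5869 CPM in those of healthy mouse 1 and 16700 to 28646 CPM in those of the other healthy mice.

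Within the Ctla2a/Ms4a3/Cdk6 cluster, whose making did use these genes, 4 of 10 rose (Chil3, Lcn2, Ngp and Pglyrp1), with a median of 1.11. Chil3 had the largest log2 fold change of these 4, 1.53 ± 0.30 (edgeR adjusted p = 0.0138), and 0 of the 10 passed without sick mouse 5 or without sick mouse 6. Calls in gated cells were lost under several settings. With a gate of 0.5% of counts, 2 of 10 passed, Lcn2 and Ngp. Camp, Chil3, Cd177 and Pglyrp1 had edgeR adjusted p-values of 0.131, 0.131, 0.136 and 0.167 there. With a gate of 10 counts 5 of 10 passed, at a higher median of 1.28: Camp (1.67), Chil3 (1.67), Ngp (1.58), Ltf (1.52) and Lcn2 (1.43). Ltf was thus called only with the stricter of these gates, while Cd177 and Pglyrp1 lost their calls (edgeR adjusted p = 0.0976 for each). Without sick mouse 5 none of the 6 passed (median 0.71, edgeR adjusted p-values of 0.0710 to 0.0912), and without healthy mouse 3 only Camp and Chil3 did. Without healthy mouse 1 there were 3 calls, and without healthy mice 2, 3 and 4 there were 0, at a median of 0.95. With gated cells of that cluster alone, where 2 healthy mice had enough cells, there were 0 of 10 calls, at a median of 0.94 (over all genes edgeR called 0 there, with 359 at an unadjusted p under 0.05). With the replicate number of the labels as a block, which compares only mice 1, 3 and 4 of each group, Cd177 and Pglyrp1 passed (2 of 11, median 0.60).

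**Figure D5:**
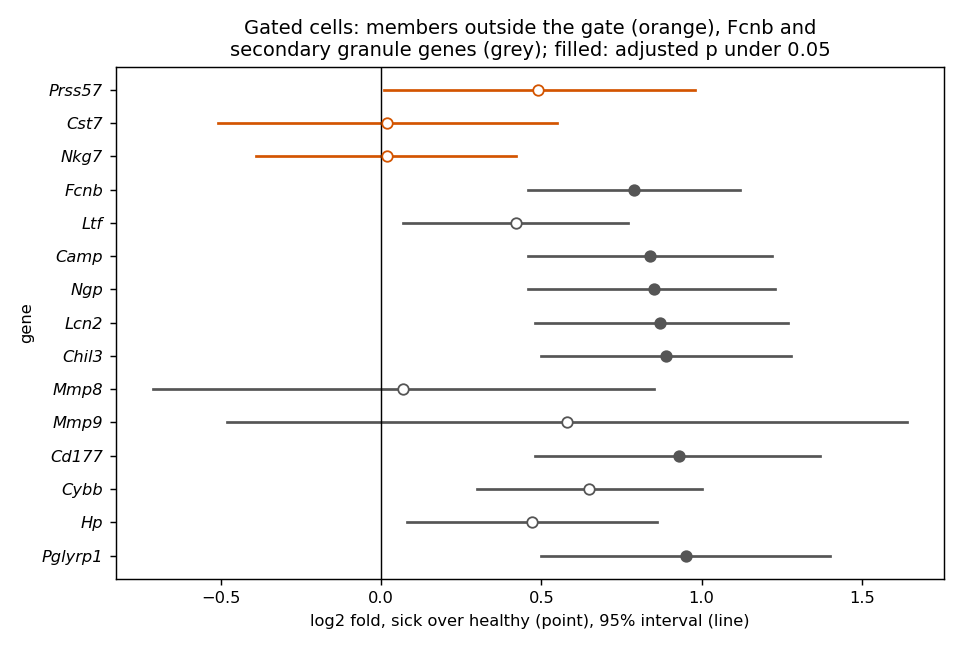
Log2 fold change in gated cells, sick over healthy (points) with its 95% interval (lines), for the 3 genes outside the gate (orange), Fcnb and the secondary and tertiary granule genes (grey); filled points passed at an adjusted p under 0.05. Prss57, Cst7 and Nkg7 are open at 0.49, 0.02 and 0.02, and 7 of the 12 others are filled, between 0.79 and 0.95.

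Genes of promyelocytes and granulocyte progenitors were not called: 0 of 23 tested in the whole joint (7 at an unadjusted p under 0.05, 0 by DESeq2) and 0 of 17 in gated cells (2 unadjusted, 0 by DESeq2). Of all genes tested, 1426 of 10323 in the whole joint and 536 of 4843 in gated cells had an unadjusted p under 0.05. The median log2 fold changes of the progenitor genes were 0.16 and 0.00. Plac8 had, in the whole joint, a log2 fold change of 0.60 ± 0.18 (edgeR adjusted p = 0.155) and Myb, a transcription factor of dividing progenitors, -0.48 ± 0.16 (edgeR adjusted p = 0.183). In gated cells Myb was at -0.61 ± 0.21 (edgeR adjusted p = 0.233) and Sox4, another progenitor factor, at -0.98 ± 0.40 (edgeR adjusted p = 0.338).

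Cell cycle genes were not called either, with 0 of 16 in both fits (0 and 1 at an unadjusted p under 0.05, 0 by DESeq2). In gated cells Mki67, which marks dividing cells, had 803 ± 173 CPM in sick mice and 1265 ± 308 CPM in healthy mice (SD), a log2 fold change of -0.64 ± 0.18 (edgeR adjusted p = 0.0881), which passed without sick mouse 4 and without healthy mouse 1. Cdk1 had 0.51 ± 0.33 (edgeR adjusted p = 0.589). Of the 18 cytotoxic lymphocyte genes that bear on Nkg7, 3 had enough counts for a test in the whole joint and none in gated cells. None of the 3 was called (0 at an unadjusted p under 0.05, 0 by DESeq2); Ccl5, a chemokine of cytotoxic cells, had 0.40 ± 0.34 and Cd3d, a T cell receptor subunit, 0.20 ± 0.25.

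Among the genes of gated cells that passed the test without overlap of the groups, at a mean of at least 50 CPM, the 5 with the largest rises lay outside these lists. Of these, 3 were genes known to be induced by interferon; no list of such genes was fixed or tested. Ifi27l2a had 168, 122, 295, 158 and 95.4 CPM in the sick mice, against 17.5, 40, 25.7 and 0 CPM in the healthy mice (log2 fold change 2.97 ± 0.46, edgeR adjusted p = 0.000806; 3.22 and 0.037 without healthy mice 2, 3 and 4). Isg15, a ubiquitin-like modifier, had 136 counts in the gated cells of sick mice and 3 in those of healthy mice, a ratio of 11.6 relative to all counts in the gated cells of each group, with a 95% counting interval of 3.87 to 56.7 (edgeR adjusted p = 0.00268). Without healthy mice 2, 3 and 4 Isg15 did not pass (edgeR adjusted p = 0.10). Bst2, which encodes the antiviral protein tetherin, had a log2 fold change of 1.94 ± 0.49 (edgeR adjusted p = 0.0413), which was lost without any 1 of the healthy mice. With a gate of 10 counts none of Ifi27l2a, Isg15 and Bst2 passed (edgeR adjusted p-values of 0.207, 0.207 and 0.433).

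The other 2 rises were in counts of immunoglobulin genes, which B lineage cells make. The heavy chain gene Ighg1 had 124, 1005, 5, 16 and 29 counts in the gated cells of the sick mice, against 1, 0, 0 and 0 counts in those of the healthy mice (edgeR adjusted p = 0.00859). Sick mouse 3 held most of them, and Ighg1 did not pass without healthy mice 2, 3 and 4 (edgeR adjusted p = 0.417) or with a gate of 10 counts (edgeR adjusted p = 0.0976). Counts of the light chain gene Igkc were higher by 2.43 ± 0.38 on the log2 scale (edgeR adjusted p = 0.000806; 3.21 and 0.014 without healthy mice 2, 3 and 4), with 477 to 1901 CPM in the gated cells of sick mice and 47.5 to 438 CPM in those of healthy mice.

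Cells outside the gate carried counts of these genes too, here as CPM without TMM factors. In erythroid clusters, which do not make immunoglobulin, Ighg1 stood at 47.4 to 353 CPM in sick mice and 0 to 22.9 CPM in healthy mice, and Igkc at 291 to 648 CPM in sick mice and 129 to 778 CPM in healthy mice. In gated cells on that scale Igkc stood at 423 to 1800 CPM in sick mice and 40.2 to 320 CPM in healthy mice. Ifi27l2a stood at 80.6 to 194 CPM in the erythroid cells of sick mice and 0 to 24.6 CPM in those of healthy mice, and Isg15 at 193 to 388 CPM in those of sick mice and 5.71 to 53.8 CPM in those of healthy mice. For Ighg1, Ifi27l2a and Isg15, every sick mouse was above every healthy mouse in the erythroid clusters and in the neutrophil clusters outside the gate. In those neutrophils Isg15 stood at 94.0 to 283 CPM in sick mice and 0 to 14.3 CPM in healthy mice. The part of these counts in the values of gated cells was not tested.

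Lower in sick mice was the linker histone gene Hist1h1a, at 43.7 ± 6.82 CPM in sick mice and 167 ± 50.5 CPM in healthy mice (SD; -1.90 ± 0.29, edgeR adjusted p = 0.000806), which did not pass without healthy mice 2, 3 and 4 (-1.64, edgeR adjusted p = 0.0903). The haemoglobin gene Hbb-bt had 4213, 6597, 7714, 7548 and 8411 CPM in the sick mice, against 8457, 28811, 29712 and 15011 CPM in the healthy mice (-1.57 ± 0.26, edgeR adjusted p = 0.00146). Healthy mouse 1 was close to the highest sick mouse, and without the other healthy mice Hbb-bt was at -0.26 (edgeR adjusted p = 0.743); with a gate of 10 counts it was at -1.03 (edgeR adjusted p = 0.207).

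In the Ctla2a/Ms4a3/Cdk6 cluster the same rule named the interferon-induced genes Ifi27l2a (3.51 ± 0.65), Ifi27 (2.31 ± 0.49) and Ifitm3 (1.40 ± 0.27) among those higher in sick mice. It also named Ighg1 and Igkc (1.43 ± 0.32), and among those lower Hist1h1a (-1.75 ± 0.37) and Aspm, a mitotic spindle gene (-1.67 ± 0.38). Their edgeR adjusted p-values in that cluster ran from 0.0138 to 0.0315, and each of these 7 calls was lost without at least 1 of the mice; without sick mouse 5 or without sick mouse 6 edgeR called 0 genes there (207 and 197 at an unadjusted p under 0.05).

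Genes were ranked by the mean over the 9 mice of the percent of their counts found in gated cells, among 8281 genes with enough counts, whose median was 17.6%. All 7 genes ranked within the first 10 of this order, 4 of them through the gate. Dio2, which encodes a deiodinase that activates thyroid hormone, was at 73.4% (41.2% to 100% over mice), between Elane and Prtn3. Ms4a3 was at 62.6% and Gstm1, a glutathione transferase gene, at 61.7%, both between Cst7 and Nkg7. The 6 others named, all under 50%, were Tma16 (47.9%), the growth-promoting transcription factor gene Myc (47.8%), Ppic (47.7%), Mfsd10 (47.1%), B4galt6 (46.8%) and Gatm (46.5%).

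Mast cells or basophils, 97 cells led by Mcpt8, Prss34 and Il6, carried a different mixture. Ctsg made up 30.4% of their gate counts, against 4.81% to 11.1% in the 19 other clusters, and Elane 13.8%, against 33.7% to 50.8%. Mpo made up 50.7%, above the 27.2% to 42.4% of the other clusters, and Prtn3 5.07%, below 13.6% to 23.1%. In sick mice these cells held 93 Mpo counts, 28 of Elane, 11 of Prtn3 and 58 of Ctsg in 87 cells; in healthy mice they held 17, 2, 0 and 8 in 10 cells.

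Ctsg counts exceeded those of Prtn3 in 7 of the 8 mice with such cells, and Mpo counts exceeded those of Elane in 6 of 8. Of 57 of these cells with Mpo or Ctsg, 43 had neither Elane nor Prtn3, and 18 had both Mpo and Ctsg. After thinning, 29.5% of them had Mpo and 14.8% Ctsg, against 6.02% and 0.768% of B cells. Only 1 mouse had 20 such cells, so no test was made between groups and the cluster was not ranked with the 17; in that mouse Mpo stood at 917 CPM, Ctsg at 288 CPM and Cst7 at 157 CPM. In the T or NK cell cluster Nkg7 had 76 counts in 139 cells of sick mice and 21 counts in 34 cells of healthy mice, or 441 and 578 CPM, and Mpo exceeded Nkg7 in 0 of 9 mice. Elane counts exceeded those of Nkg7 there in sick mice 3 (42 against 29), 4 (6 against 3) and 5 (15 against 13). They equalled those of Nkg7 in sick mouse 1 and healthy mouse 3 and were lower in sick mouse 6 and healthy mice 1, 2 and 4.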

How the data were processed

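Seq-Well counts of single cells from the left knee joints of 5 sick and 4 healthy mice were used as the authors deposited them, as raw counts per gene and cell, per the labels; all values are whole numbers. The submitters' processing notes name bcl2fastq, Picard, STAR and the Drop-seq Core Computational Protocol 1.0.1, with builds GRCm38 and mm9, while the labels' protocol names GRCh38, so the build used for counting is uncertain; gene positions come from GENCODE M21 (22894 symbols found).

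A cell was kept when it showed 200 genes or more and no more than 20% of its counts were mitochondrial (16749 of 16751 cells), and the matrix holds no values of other samples. Clusters were made with scanpy 1.11.5 and leidenalg 0.10.2 from 2000 variable genes without the 7 genes (30 components, 20 neighbours, resolution 1). Counts were summed per mouse in all kept cells, in gated cells and in the cluster with most gated cells, filtered on low counts and tested with edgeR 4.0.16 (R 4.3.3, TMM, quasi-likelihood, Benjamini-Hochberg at 0.05). Shares of cells were compared with an exact permutation test. The test was tried on simulated data with known changes, placed only in genes with a mean above 50 CPM. The test recovered 82.0% of the 2-fold ones at the whole joint's depth (9853 genes), 51.0% at that of gated cells (4425 genes) and 44.6% at that of the cluster (2890 genes), and 100% of the 4-fold ones each time. Prss57 and Cst7 were under that mean in the whole joint, so its recovery does not cover them.

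The genes and lists were chosen with earlier results of these data known. Genes named are the 7 and those of each list that were called, or else the 2 with the smallest p. Also named are the 5 largest rises and falls without overlap at a mean of at least 50 CPM. The last are the 10 other genes with the largest mean percent of their own counts in gated cells. Those of uncertain identity were left out. Alternatives were DESeq2 1.42.0, its size factors, no low-count filter, other gates, cell filters and resolutions, gene classes left out, a replicate block and mice left out. Only replicate numbers 1, 3 and 4 occur in both groups, so healthy mouse 2 and sick mice 5 and 6 do not enter the blocked comparison. Same-numbered sick and healthy mice are different animals and were not treated as pairs outside that block. Deviations of such mice from the group means correlated at 0.17, -0.05 and 0.07. These values cannot show whether a number marks shared handling, which the labels do not give. Counts per mouse limit precision, and intervals on counts cover counting error only.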

Additional observations from a re-analysis of the deposited data

How the results depend on the processing

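None of the 7 genes passed the test under any of the 17 alternatives in the whole joint or the 14 for the cluster with most gated cells. Nor did Prss57, Cst7 or Nkg7 pass under the 21 in gated cells. The 14 include clusters taken at other resolutions, which were other sets of cells. At resolution 0.5 it was a monocyte or macrophage cluster led by F13a1, Ms4a6c and Ccr2 (2296 cells, 571 gated). At resolution 2 it was an unnamed cluster led by Ctla2a, Cdk6 and Ccnd2 (718 cells, 407 gated). The direction of the small fold changes of the 7 genes was less firm. Without healthy mice 2, 3 and 4, the whole-joint log2 fold change was -0.19 for Mpo and -0.11 for Ctsg and Cst7, and with cells of at least 400 genes it was -0.04 for Nkg7. In gated cells Cst7 was at -0.01 with DESeq2, with its size factors and with cells of at least 400 genes, at -0.05 with the replicate block, and at -0.16 with a gate of 10 counts and with one of 0.5% of counts; Nkg7 was at -0.01 with DESeq2 and its size factors and -0.03 with a gate of 3. In the cluster, the values without the low-count filter were 0.27 for Elane, 0.21 for Ctsg, 0.02 for Cst7 and 0.19 for Nkg7. In the cluster taken at resolution 2 they were 0.13 for Elane, 0.05 for Cst7 and 0.22 for Nkg7. In the monocyte or macrophage cluster taken at resolution 0.5 Mpo was at -0.05. Leaving out the filter moved the median of the genes of the filtered test to 0.08 in the whole joint, 0.21 in gated cells and 0.27 in the cluster, against -0.02 in each.

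With mice left out in turn, the whole-joint log2 fold changes ran from 0.00 to 0.33 for Mpo, -0.07 to 0.22 for Elane, 0.20 to 0.55 for Prtn3, 0.01 to 0.32 for Ctsg, 0.13 to 0.46 for Prss57, 0.05 to 0.42 for Cst7 and -0.08 to 0.13 for Nkg7. In gated cells they ran from 0.36 to 0.70 for Prss57, -0.11 to 0.31 for Cst7 and -0.20 to 0.19 for Nkg7. In the cluster they ran from -0.05 to 0.13 for Mpo, -0.17 to 0.15 for Elane, 0.04 to 0.34 for Prtn3, -0.27 to -0.02 for Ctsg, -0.08 to 0.49 for Prss57, -0.45 to -0.09 for Cst7 and -0.27 to 0.14 for Nkg7. The share of gated cells differed by 0.51 to 2.50 percentage points, by -1.15 without healthy mice 2, 3 and 4 and by -0.0998 with cells of at least 400 genes.

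Counts of calls moved more, and the cause was not tested. Of genes in the whole joint 66 were higher and 31 lower in sick mice. There were 162 and 90 with DESeq2, 210 and 72 without the filter, 9 and 3 without healthy mice 2, 3 and 4, and 38 and 13 with cells of at least 400 genes. There were 19 lower without haemoglobin, mitochondrial and ribosomal RNA-like genes. With 1 mouse left out there were 39 to 150 higher and 14 to 105 lower. In gated cells 32 were higher and 27 lower. There were 108 higher without the filter, 5 and 4 without healthy mice 2, 3 and 4, 15 and 2 with a gate of 10, 16 and 11 with one of 0.5%, and 0 and 0 in gated cells of the cluster alone, an alternative chosen after seeing the data. Lower genes numbered 15 with at least 400 genes and 11 without haemoglobin, mitochondrial and ribosomal RNA-like genes. With 1 mouse left out there were 13 to 36 higher and 10 to 49 lower. In the cluster 15 were higher and 5 lower. There were 51 higher without the filter and 11 lower with DESeq2. The monocyte or macrophage cluster taken at resolution 0.5 gave 36 and 8, and the cluster taken at resolution 2 gave 2 and 2. With 1 mouse left out there were 0 to 20 of either.

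With the replicate number as a block, 43 genes were higher in the whole joint, 18 in gated cells, and 14 lower in the cluster. This setting compares only mice 1, 3 and 4 of each group, so its values rest on fewer mice than the main fits. The blocked log2 fold changes in the whole joint were 0.34 for Mpo, 0.40 for Elane, 0.61 for Prtn3, 0.37 for Ctsg, 0.69 for Prss57, 0.44 for Cst7 and 0.27 for Nkg7. In gated cells the block gave 0.77 for Prss57 and 0.08 for Nkg7. In the cluster it gave 0.25 for Elane, 0.05 for Ctsg and 0.20 for Nkg7. No paired or blocked analysis was run for the share of gated cells. Cd3d in the whole joint was at -0.03 with the block and -0.21 without healthy mice 2, 3 and 4.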
